A study of Mus musculus with 99 samples.

Results

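The genes for the protein subunits of the mitochondrial ribosome were followed in heart RNA across 99 inbred mouse strains. All genes whose symbol in the platform annotation begins with Mrpl or Mrps and a digit were taken, 70 of the 11725 genes named on the array, and each was represented by its brightest probe set. All 70 lay above the limit for dim genes, so all 70 are among the 7513 genes tested. By known position in the ribosome, 27 encode large-subunit proteins with a bacterial counterpart, 20 large-subunit proteins found only in mitochondria, 13 small-subunit proteins with a bacterial counterpart and 9 small-subunit proteins found only in mitochondria. The remaining gene, Mrps36, carries the name of a ribosomal protein but is now known as a subunit of the alpha-ketoglutarate dehydrogenase complex.

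Mitochondria keep their own ribosomes, which translate the few proteins still encoded in mitochondrial DNA, all of them subunits of the respiratory chain and ATP synthase. The ribosomal RNAs come from mitochondrial DNA, whereas every ribosomal protein is encoded in the nucleus, made in the cytosol and imported. The heart depends on oxidative phosphorylation, and inherited defects of MRPL3 and MRPL44 in people cause cardiomyopathy.

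Each strain gave 1 array of heart RNA from chow-fed males, and no strain was treated. There were 28 classical inbred strains, 30 BXD strains (C57BL/6J crossed with DBA/2J), 15 AXB and 13 BXA strains (reciprocal crosses of C57BL/6J and A/J), 11 BXH strains (C57BL/6J crossed with C3H/HeJ), 1 wild-derived strain (CAST/EiJ) and B6cC3-1/KccJ. All recombinant inbred panels thus share the parent C57BL/6J. AXB19, AXB19a and AXB19b were averaged, as was a pair of BXD24 strains, leaving 29 BXD and 13 AXB families; BXD29-Tlr4<lps-2J>/J and BXD24/TyJ-Cep290<rd16>/J carry the mutations their names give. The protocol gives an age of 16 weeks. With 1 array per strain, every error below measures the spread between strains together with the technical spread. A lower value in bulk tissue can mean fewer cells of a type or less RNA per cell, which cannot be told apart. Whether sequence differences between strains under a probe set changed its reading was not tested.

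Levels are log2 RMA values, so a difference of 1 is a doubling. The mean of 9 cardiomyocyte markers lay between 12.4 and 12.8 on all 99 arrays. Markers of another organ, such as airway, liver or fast skeletal muscle, were raised on 39 of the 99 arrays, among them 8 of 11 BXH arrays, 9 of 28 classical strains, 10 of 30 BXD arrays, 7 of 15 AXB arrays, 4 of 13 BXA arrays and CAST/EiJ. The part of these arrays in each result below was not tested unless a value without them is given. The control probe sets of Gapdh read RNA integrity and labelling through the level at the 3' end minus that at the 5' end, which averaged -0.22 ± 0.085 (SD, n = 30) in BXD and -0.31 ± 0.082 (n = 28) in AXB and BXA together.

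Upstream sequence was available for 62 of the 70 genes as 68 RefSeq promoter windows of 300 bases on the build GRCm38.p6, each running from 250 bases before to 50 bases after a transcription start. GABP, YY1 and NRF-1 are the factors best known for driving nuclear genes of mitochondrial proteins, and their motifs were searched on both strands as exact letters, with 1 open position in NRF-1. The GABP letters CCGGAAG occurred in 32.4% of the 68 windows, against 17.7% of the windows of all tested genes and 8.86% of all windows in the table. The YY1 letters AAGATGGC occurred in 16.2%, against 4.59% and 2.75%. The NRF-1 consensus occurred in 8.82%, against 5.2% and 2.44%. At least 1 of the 3 motifs was present in 50% of the windows, against 25% of those of tested genes. A match describes the letters only. The NRF-1 letters were settled after several of these windows had been looked at. The windows printed are those of the genes called in at least 2 panel comparisons below, as far as the table held them; Mrpl15, the fourth such gene, was not in it. Capitals mark a motif.
Mrps12 (chr7:28741772-28742071, minus strand): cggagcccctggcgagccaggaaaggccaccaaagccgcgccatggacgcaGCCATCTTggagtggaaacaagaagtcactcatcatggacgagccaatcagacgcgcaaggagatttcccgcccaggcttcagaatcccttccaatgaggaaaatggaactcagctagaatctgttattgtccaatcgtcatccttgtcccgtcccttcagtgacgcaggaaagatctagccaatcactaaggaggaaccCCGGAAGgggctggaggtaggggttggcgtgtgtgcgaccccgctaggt
Mrpl39 (chr16:84735195-84735494, minus strand): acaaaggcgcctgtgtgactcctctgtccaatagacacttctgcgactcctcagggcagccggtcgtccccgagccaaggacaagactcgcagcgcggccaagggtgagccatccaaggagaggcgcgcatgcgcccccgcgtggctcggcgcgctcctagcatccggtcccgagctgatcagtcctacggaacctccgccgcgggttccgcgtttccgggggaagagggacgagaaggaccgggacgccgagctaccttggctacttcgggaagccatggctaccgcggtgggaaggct
Mrpl44 (chr1:79775768-79776067, plus strand): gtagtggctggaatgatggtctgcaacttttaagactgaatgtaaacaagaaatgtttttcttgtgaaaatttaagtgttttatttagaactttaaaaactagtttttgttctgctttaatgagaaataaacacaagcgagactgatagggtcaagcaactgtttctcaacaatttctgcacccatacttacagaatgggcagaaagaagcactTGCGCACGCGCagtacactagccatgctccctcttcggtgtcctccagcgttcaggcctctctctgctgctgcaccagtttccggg
In the Mrps12 window the YY1 letters lay on the other strand at bases 52 to 59 and the GABP letters on the printed strand at bases 252 to 258, counted from the 5' end. The NRF-1 letters lay at bases 215 to 225 of the Mrpl44 window. The window of Mrpl39 held none of the 3 motifs in the exact letters searched. It does hold cgcgcatgcgc, which differs from the NRF-1 letters only in its first base and was not counted. The window of Mrps12 overlaps that of the divergent gene Sars2, which encodes the mitochondrial seryl-tRNA synthetase, by 246 bases.

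The mitochondrial ribosomal protein genes varied little between the 28 classical strains. Their median SD was 0.19 log2 units (jackknife SE over strains 0.0099), against 0.23 for all 7513 genes tested, and 52 of the 70 (74.3%) lay below the median of all genes. Genes at a similar level are the closer comparison: of the 981 genes with a mean level between 7.72 and 8.89, 34 were mitochondrial ribosomal protein genes, with a median SD of 0.18 against 0.21 for all 981. The genes of their products' partners varied less. The median SD was 0.090 for 75 nuclear genes of the respiratory chain and 0.12 for 44 cytosolic ribosomal protein genes, which are both brighter sets. The same order of mitochondrial ribosome above respiratory chain held within the panels, where the mitochondrial ribosomal median SD was 0.16 in BXD families, 0.16 in AXB and BXA families and 0.15 in BXH strains. For all genes tested it was 0.21, 0.20 and 0.22. The near-isogenic arrays, which come from closely related substrains, gave 0.13, or 0.11 without AXB19/PgnJ, against 0.20 and 0.15 for all genes. The lower spread than that of all genes was thus also present between these closely related substrains.

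**Figure D1:**
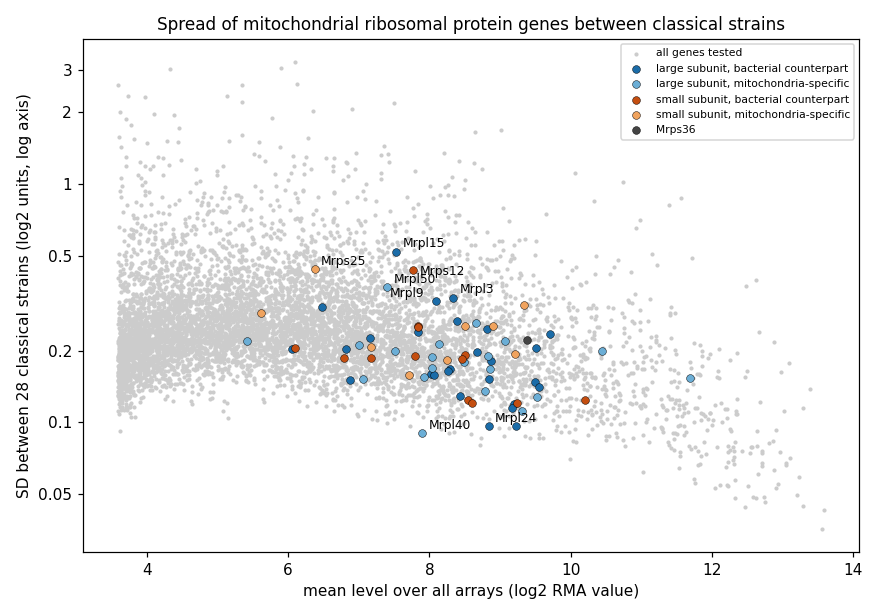
SD between the 28 classical strains (log2 units, log axis) against mean level over all arrays (log2 RMA value), 1 point per gene, with the 70 mitochondrial ribosomal protein genes coloured by class and all genes tested in grey. The coloured points run from an SD of 0.090 for Mrpl40 to 0.52 for Mrpl15, and 15 of them lie under 0.15.

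A few of the genes stood well apart from this low spread. The SD reached 0.3 in 8 of the 70 (11.4%), against 26.4% of all genes tested, and fell under 0.15 in 15 (21.4%, against 11.4%). The 6 largest values belonged to Mrpl15 (0.52), Mrps25 (0.44), Mrps12 (0.44), Mrpl50 (0.37), Mrpl3 (0.33) and Mrpl9 (0.32). They include core proteins shared with bacteria (Mrpl15, Mrps12, which forms part of the decoding centre, Mrpl3 and Mrpl9) and mitochondria-specific ones (Mrps25 and Mrpl50). The 4 smallest belonged to the large-subunit genes Mrpl40 (0.090), Mrpl24 (0.096), Mrpl2 (0.096) and Mrpl44 (0.11). SEA/GnJ was the highest strain for 10 of the 70 genes, including Mrps25, where it read 7.79, as well as Mrpl50, Mrpl3 and Mrpl9. This array also had the highest mean of the 70 genes among the classical strains (8.43) and the lowest Gapdh 3' minus 5' difference (-0.47). The part of these in its 10 highest readings was not tested. For Mrps33 1 array set the spread: KK/HlJ read 7.78 while the other classical strains lay between 9.20 and 9.60, and the SD of 0.31 became 0.089 without it. Without its farthest strain each, 5 genes kept an SD of at least 0.3 (7.14%, against 19.2% of all genes), with Mrps33, Mrpl3 and Mrpl19 dropping under it. Of all 70, Mrps33 was the one gene whose SD moved by more than 1.5 times when its farthest strain was left out.

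The brightest probe sets, each on its own scale, were those of Mrpl42, Mrpl39, Mrps21 and Mrpl30, with classical medians of 11.75, 10.49, 10.18 and 9.71. The dimmest were those of Mrpl54, Mrps26, Mrpl33 and Mrps5, with medians of 5.46, 5.56, 6.06 and 6.11. Probe sets differ in their response, so these values do not order the amounts of RNA. Among genes with a well-studied role, Mrps5, whose level has been tied to lifespan in BXD mice, ranged from 5.58 in A/J to 6.47 in NZW/LacJ. Mrpl12, which also binds the mitochondrial RNA polymerase, ranged from 9.13 to 9.78. Mrps16 ranged from 8.36 to 8.79 and Mrps22 from 6.79 to 7.59; human defects of both impair oxidative phosphorylation. All of these had an SD of at most 0.21.

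The comparison of BXD with AXB and BXA asks whether replacing A/J by DBA/2J as the second parent shifts these genes. In BXD hearts Mrpl15 was 1.87-fold lower and Mrps12 1.54-fold higher, and 11 of the 70 genes were called in all (limma, Benjamini-Hochberg adjusted p under 0.05 over 7513 genes; 29 against 26 families). That is 15.7% of the genes, against 14.6% of all genes tested, so the group as a whole did not stand out in number. Of the 11, 4 were higher in BXD (Mrps12, Mrps35, Mrpl16 and Mrpl39), where 8.59% of all genes were. The other 7 were lower (Mrpl15, Mrpl50, Mrps23, Mrpl34, Mrpl35, Mrps36 and Mrpl42), where 6.04% of all genes were. When each array was centred on its median, 15 were called (21.4%, against 15% of all genes), 2 higher and 13 lower.

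Mrpl15, a conserved protein of the large subunit, showed the largest difference. It ran from 6.45 through a median of 7.03 to 7.44 in BXD families and from 7.05 through 8.05 to 8.46 in AXB and BXA families. All 29 BXD families lay below the AXB and BXA median, and 16 lay below the lowest AXB or BXA family. The difference was -0.90 (SE 0.093, limma adjusted p = 5.13e-10). The parents read 7.59 in C57BL/6J, 6.67 in DBA/2J, 8.36 in A/J and 7.17 in C3H/HeJ, each from 1 array. Neither neighbouring gene was called: Lypla1 differed by -0.095 (SE 0.053) and Sox17 by 0.034 (SE 0.097).

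Mrps12, a conserved protein of the small subunit, fell into a low and a high level in AXB and BXA and in the classical strains. In AXB and BXA, 19 of the 26 families read 6.96 to 7.44 and the other 7 read 7.85 to 8.14. All 29 BXD families read 7.69 to 8.32 without such a gap; 3 of them, from 7.69 to 7.75, lay under the high AXB and BXA families. Among the classical strains 9 were low, from 6.96 to 7.46 (BALB/cJ, NZW/LacJ, 129X1/SvJ, A/J, I/LnJ, SM/J, FVB/NJ, C57L/J and LG/J), and 19 were high, from 7.89 to 8.32. A/J read 7.22, and C57BL/6J, DBA/2J and C3H/HeJ read 7.97, 8.04 and 8.02. The difference between BXD and AXB with BXA was 0.62 (SE 0.076, limma adjusted p = 7.67e-08). Sars2, whose promoter window overlaps that of Mrps12 printed above, was not called, with a difference of 0.037 (SE 0.046). Mrps12 has 1 probe set, of a type whose probes can match several transcripts. Mrpl15 and Mrps35 also have 1 probe set each.

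Mrps35, a mitochondria-specific protein of the small subunit, was higher in BXD by 0.29 (SE 0.062, limma adjusted p = 0.000775). It ran from 8.72 through 9.09 to 9.40 in BXD families and from 8.44 through 8.68 to 9.36 in AXB and BXA families, so the ranges overlapped although all 29 BXD families lay above the AXB and BXA median. A/J was the low parent at 8.42, and C57BL/6J, DBA/2J and C3H/HeJ read 9.06, 8.87 and 8.92. Its neighbour Ccdc91 was also called higher in BXD, by 0.38 (SE 0.076, limma adjusted p = 0.000294). Over the 3 comparisons with called genes, 42 pairs of a called gene and a tested neighbour were looked at. The neighbour was called in 4, of which 2 moved in the direction of the ribosomal gene. It was called in 2 of 22 pairs for BXD against AXB and BXA (14.6% of all genes). For BXH it was called in 1 of 10 against AXB and BXA (6.52%) and 1 of 10 against BXD (10.6%). Some neighbours recur across these comparisons.

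**Figure D2:**
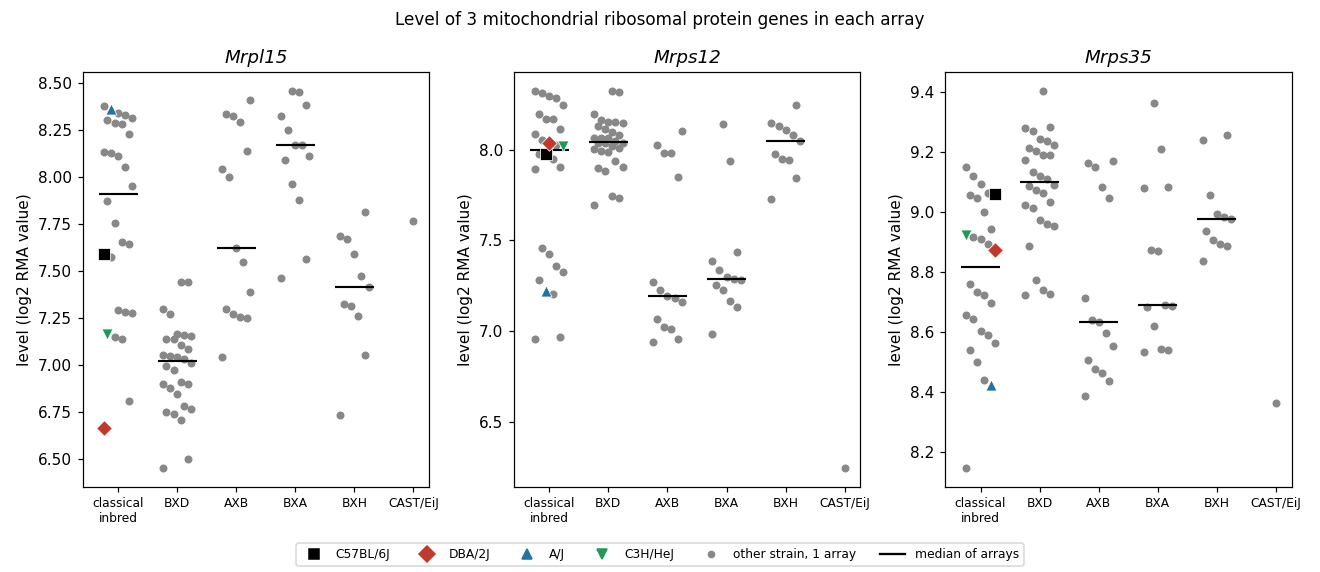
Level (log2 RMA value) of Mrpl15, Mrps12 and Mrps35 on each array by group, with the parent strains marked and a line at the median of arrays. No array reads between 7.46 and 7.69 for Mrps12; all BXD and BXH arrays lie above that gap, and CAST/EiJ lies lowest at 6.25.

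The other 8 called genes differed by less. Mrps23 (-0.24), Mrpl50 (-0.25), Mrpl34 (-0.21), Mrpl35 (-0.20) and Mrps36 (-0.20) were lower in BXD, with adjusted p from 0.00251 to 0.0290, and Mrpl42 was lower by 0.10 (limma adjusted p = 0.0378). Mrpl16 and Mrpl39 were higher by 0.11 and 0.097 (limma adjusted p = 0.0350 and 0.0161). All ranges overlapped; for Mrps23, BXD families ran from 7.78 through 8.38 to 9.14 and AXB and BXA families from 8.34 through 8.60 to 9.02. The second probe sets of Mrpl39, Mrpl50 and Mrps23 were not called, with differences of 0.022, -0.0015 and -0.082. BXD arrays also had the higher Gapdh 3' minus 5' difference. With that difference as a covariate, 6 genes were called (8.57%, against 5.39% of all genes), 4 higher (Mrps12, Mrps35, Mrps30 and Mrpl19) and 2 lower (Mrpl15 and Mrps36). The median difference of the 70 genes was then 0.015, with 25 below 0, against -0.020 and 45 without the covariate. Mrps23 and Mrpl50 differed by -0.076 and 0.0016.

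AXB and BXA differ in which parent was the mother, and no gene of the 7513 was called between them (13 against 13 families, 0% of all genes). At an unadjusted p under 0.05, 22 of the 70 mitochondrial ribosomal protein genes differed (31.4%, against 10.5% of all genes), 21 of them lower in AXB. The difference was below 0 for 59 of the 70 (84.3%, against 45.5% of all genes), with a median of -0.087 against 0.011 for all genes. Every class leaned the same way: 22 of the 27 conserved and 18 of the 20 mitochondria-specific large-subunit genes were below 0, as were 10 of the 13 conserved and all 9 mitochondria-specific small-subunit genes. Mrps36 was above 0. Neither the genes nor the classes are independent in these counts, because the 70 genes varied together over AXB and BXA families (median r 0.53, described below). The mean of the 70 genes averaged 8.24 over AXB arrays and 8.32 over BXA arrays. The part of such a shared shift in these counts was not tested. Of 75 respiratory chain genes, 58 were below 0, but 3 differed at an unadjusted p under 0.05 and their median was -0.015. Without the arrays that carried markers of another organ, 7 AXB against 9 BXA families remained, the median moved to -0.029, 43 of the 70 were below 0 and 6 differed at an unadjusted p under 0.05, as did 5.68% of all genes.

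**Figure D3:**
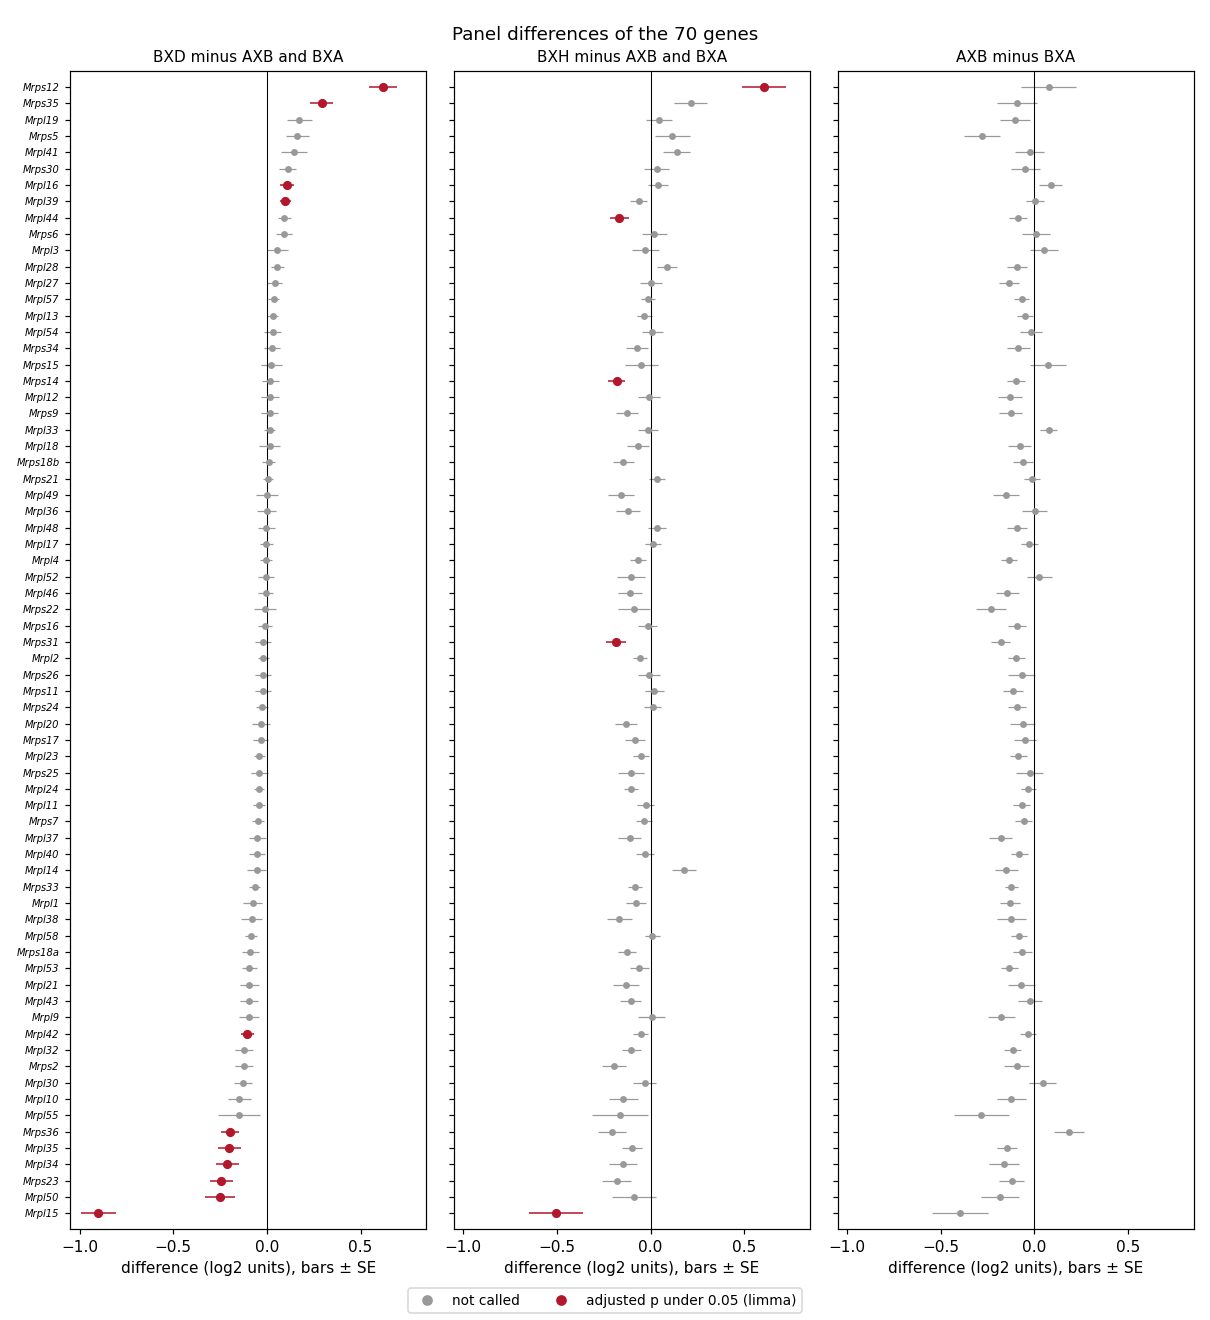
Difference in log2 units, with bars of ± SE, of each of the 70 genes in 3 panel comparisons, ordered by the difference between BXD and AXB with BXA; red marks genes called by limma (adjusted p under 0.05). Mrps12 and Mrpl15 lie farthest out at 0.62 and -0.90, and most points of the AXB minus BXA panel lie left of 0 although none is called.

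BXH hearts differed from AXB and BXA hearts in 5 of the 70 genes (7.14%, against 6.52% of all genes; 11 against 26 families). Mrps12 was higher by 0.60 (SE 0.12, limma adjusted p = 0.00111), with BXH strains from 7.73 through 8.05 to 8.25. Mrpl15 was lower by 0.51 (SE 0.14, limma adjusted p = 0.0258), with BXH strains from 6.73 through 7.41 to 7.82. Mrps14, a conserved small-subunit protein, was lower by 0.18, Mrps31 by 0.19 and Mrpl44, a large-subunit protein related to ribonuclease III, by 0.17, with adjusted p from 0.0133 to 0.0431. Of all genes, 3.18% were called higher and 3.34% lower in BXH. All 11 BXH strains lay below the AXB and BXA median of Mrps14 and of Mrpl15, and above that of Mrps12. This comparison shares its AXB and BXA families with the one above.

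Against BXD, BXH differed in 5 of the 70 genes (7.14%, against 10.6% of all genes; 11 strains against 29 families), 2 higher and 3 lower (4.3% and 6.34% of all genes). Mrpl15 was higher in BXH by 0.40 (SE 0.090, limma adjusted p = 0.00309), which placed BXH between the other panels for this gene. Mrpl14, a conserved large-subunit protein, was higher by 0.23. Mrpl44 was lower by 0.26 (SE 0.054, limma adjusted p = 0.00151), running from 8.88 through 9.16 to 9.45 in BXH and from 9.17 through 9.39 to 9.64 in BXD. Mrpl39 was lower by 0.16 and Mrps18b by 0.15. The second probe set of Mrpl44 differed by -0.040 and was not called. With the Gapdh 3' minus 5' difference as a covariate, 7 genes were called (10%, against 6.83% of all genes), 0 higher and 7 lower (Mrpl39, Mrpl44, Mrpl49, Mrps14, Mrps18b, Mrps22 and Mrps31), and 58 of the 70 were below 0, against 47 without it. Mrpl15 and Mrpl14 then differed by 0.25 and 0.16 and were not called. The number in the title of each array, which the labels do not explain, runs from 3 to 394 in BXH and from 473 to 683 in the other panels, so panel and title range cannot be told apart for BXH. Without arrays that carried markers of another organ, 3 BXH strains were left and none of the 70 genes was called in either BXH comparison (7 at an unadjusted p under 0.05 in each). Of all genes 0.24% and 0.799% were called there, and 9.12% and 14.4% had an unadjusted p under 0.05, against AXB with BXA and against BXD. In that subset Mrpl44 differed from AXB and BXA by 0.054, Mrps12 by 0.67 (SE 0.20) and Mrpl15 by -0.38 (SE 0.23).

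BXH against the classical strains gave none of the 70 genes (0.293% of all genes called; 11 against 28 strains), with 14 at an unadjusted p under 0.05 by limma (11.3% of all genes). Over all 5 comparisons 16 of the 70 genes were called at least once (22.9%, against 23.6% of all genes), 12 of them in 1 comparison, and 54 were called in none.

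The parent arrays allow a look at whether the panel differences follow the founders. A parent differed from C57BL/6J by at least 0.5 log2 units in 6 of the 70 genes for each of DBA/2J, A/J and C3H/HeJ (8.57%), against 22.2%, 13.4% and 22% of all genes. In DBA/2J the 6 were all lower: Mrpl55 (-1.10), Mrpl50 (-0.93), Mrpl15 (-0.92), Mrps23 (-0.72), Mrpl35 (-0.61) and Mrps18a (-0.53). In C3H/HeJ the 6 were lower as well: Mrpl50 (-1.24), Mrpl55 (-0.94), Mrpl9 (-0.70), Mrps31 (-0.61), Mrps23 (-0.53) and Mrpl32 (-0.51). In A/J, Mrpl15 (0.77) and Mrps36 (0.64) were higher, and Mrpl55 (-0.85), Mrps5 (-0.80), Mrps12 (-0.75) and Mrps35 (-0.64) lower. The Gapdh 3' minus 5' difference was -0.22 in DBA/2J and -0.18 in C3H/HeJ, against -0.41 in C57BL/6J and -0.37 in A/J. In the same order, the mean of the 70 genes was 8.154, 8.145, 8.284 and 8.305. The part of this array measure in the parent differences was not tested. Mrpl55, a mitochondria-specific large-subunit gene, appears for all 3 parents because C57BL/6J, at 9.15, was the highest of the 28 classical strains. In AXB and BXA it ran from 8.23 to 9.54, with 16 families above and 10 below the midpoint of the parents. Mrps5 divided 13 to 13 around its midpoint and Mrps35 10 above to 16 below. In BXD, Mrpl50 lay below the midpoint in 24 of 29 families, and Mrpl35 above it in 23 of 29. The Mrpl50 midpoint was 7.46 for BXD, 7.83 for AXB and BXA and 7.30 for BXH, so counts around it do not compare levels between panels. The panel means were 7.21, 7.47 and 7.38 in the same order. Of the AXB and BXA families, 24 of 26 read below their own midpoint. Of these 26 families, 23 read outside the range of their parents, A/J at 7.74 and C57BL/6J at 7.92. In BXH, 8 of the 11 strains lay over their own, lower Mrpl50 midpoint and 3 under. The part of the C57BL/6J array in these splits was not tested.

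The sign of the panel difference matched that between the 2 differing parents in 52 of the 70 genes for BXD against AXB and BXA (74.3%, against 65.9% of all genes). It matched in 57 for BXH against AXB and BXA (81.4%, against 59.5%) and in 37 for BXH against BXD (52.9%, against 56.4%). Among called genes it matched in 11 of 11, 5 of 5 and 5 of 5, against 88.1%, 83.7% and 70.5% of all called genes. The 3 comparisons share panels and parents, so these counts are not independent of each other. Nor are the genes within a count, because the 70 genes varied together across strains, as described below. The parent arrays also differed in the mean of the 70 genes, at 8.145 in C3H/HeJ, 8.154 in DBA/2J and 8.305 in A/J. The part of such a shared shift in the matching signs was not tested.

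The mitochondrial ribosomal protein genes varied together across strains, which their selection by name did not use. The median correlation (Pearson's r) of a gene with the mean of the other 69 was 0.40 over the 28 classical strains, 0.53 over 29 BXD families and 0.53 over 26 AXB and BXA families. The medians for all other tested genes with that mean were -0.0043, 0.0023 and -0.026. The correlation was at least 0.5 for 21, 41 and 39 of the 70 genes (30%, 58.6% and 55.7%), against 4.49%, 8.96% and 3.83% of other genes. In BXD it was highest for Mrps23 (0.88) and Mrpl42 (0.87), and lowest for Mrpl33 (-0.30) and Mrpl52 (-0.17). Mrpl15 followed the others in BXD (0.80) and the classical strains (0.58) but not in AXB and BXA (0.013). These values are descriptions; all genes on an array share its RNA, labelling and tissue makeup.

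The mean of the 70 genes also moved with that of the respiratory chain genes, with r = 0.70 (Spearman's rho 0.70) over classical strains, 0.61 (0.49) over BXD families and 0.68 (0.58) over AXB and BXA families. Without the 2 strains farthest out on the respiratory mean, r was 0.65, 0.64 and 0.61. With the mean of cytosolic ribosomal protein genes r was -0.15, -0.0085 and 0.12. The mean of the 70 genes was lower on arrays with a higher Gapdh 3' minus 5' difference, with r = -0.44, -0.74 and -0.37, which became -0.40, -0.69 and -0.19 without the 2 strains farthest out. With white fat markers r was -0.36, -0.36 and -0.52, and -0.14, -0.36 and -0.46 without 2 strains. With atrium markers it was -0.096, -0.62 and -0.58, and -0.075, -0.43 and -0.38 without 2 strains. With airway markers it was 0.080, -0.081 and -0.41, and 0.29, -0.062 and -0.27 without 2 strains. The part of these measures in the shared variation was not tested. The range of the mean was narrow, from 8.11 to 8.43 over classical strains and from 8.08 to 8.52 over BXD arrays.

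**Figure D4:**
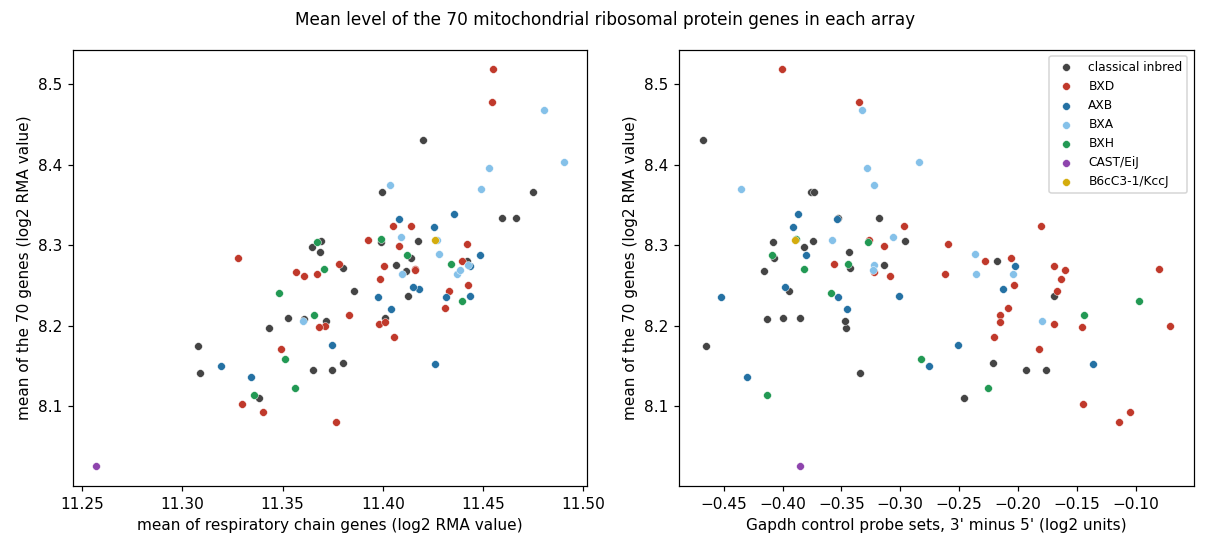
Mean level of the 70 genes on each array (log2 RMA value) against the mean of the respiratory chain genes (left) and against the Gapdh 3' minus 5' difference (right), coloured by group. The points rise to the right in the left plot and fall in the right plot, and CAST/EiJ lies lowest at 8.03.

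CAST/EiJ, of the subspecies Mus musculus castaneus and so the most distant strain here, was measured on 1 array. That array also carried liver, airway and fast skeletal muscle markers. Its liver mean (11.36) and fast skeletal muscle mean (9.85) were the highest of the 99 arrays, and its cardiomyocyte mean (12.43) was the lowest. The part of this tissue makeup in the values below was not tested. Of the 70 genes 17 lay below the lowest classical strain (24.3%, against 16.9% of all genes) and 5 above the highest (7.14%, against 10.6%), and 48 lay within the range. The median difference from the classical mean was -0.11, against -0.081 for all genes. Mrpl39, a mitochondria-specific large-subunit gene with one of the brightest probe sets, read 4.50 in CAST/EiJ and 10.23 to 11.07 in the classical strains, a difference of -6.03. Its second probe set read 7.36 against 7.46 to 8.49, so the 2 probe sets differ by far in size.

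Next came Mrps12, at 6.25 against 6.96 to 8.32, and Mrpl42, at 10.27 against 11.37 to 11.90. Mrpl53, Mrpl34 and Mrpl27 were lower than the classical mean by 1.00, 0.96 and 0.89. Mrps24 read below the classical range on both of its probe sets, by -0.89 and -1.02 against the means. Above the range lay Mrpl16 (10.21 against at most 9.70), Mrpl40 (8.53 against at most 8.09), Mrps18b, Mrpl46 and Mrps7. By class, 8 of the 20 mitochondria-specific large-subunit genes and 5 of the 13 conserved small-subunit genes were below the range, against 4 of 27 conserved large-subunit genes and 0 of 9 mitochondria-specific small-subunit genes. When arrays were centred on their median, 13 of the 70 lay below and 5 above (13.1% and 13.2% of all genes). Without the classical strains that carried other-organ markers, 19 lay below and 5 above the remaining 19 strains (19.6% and 12.4% of all genes).

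**Figure D5:**
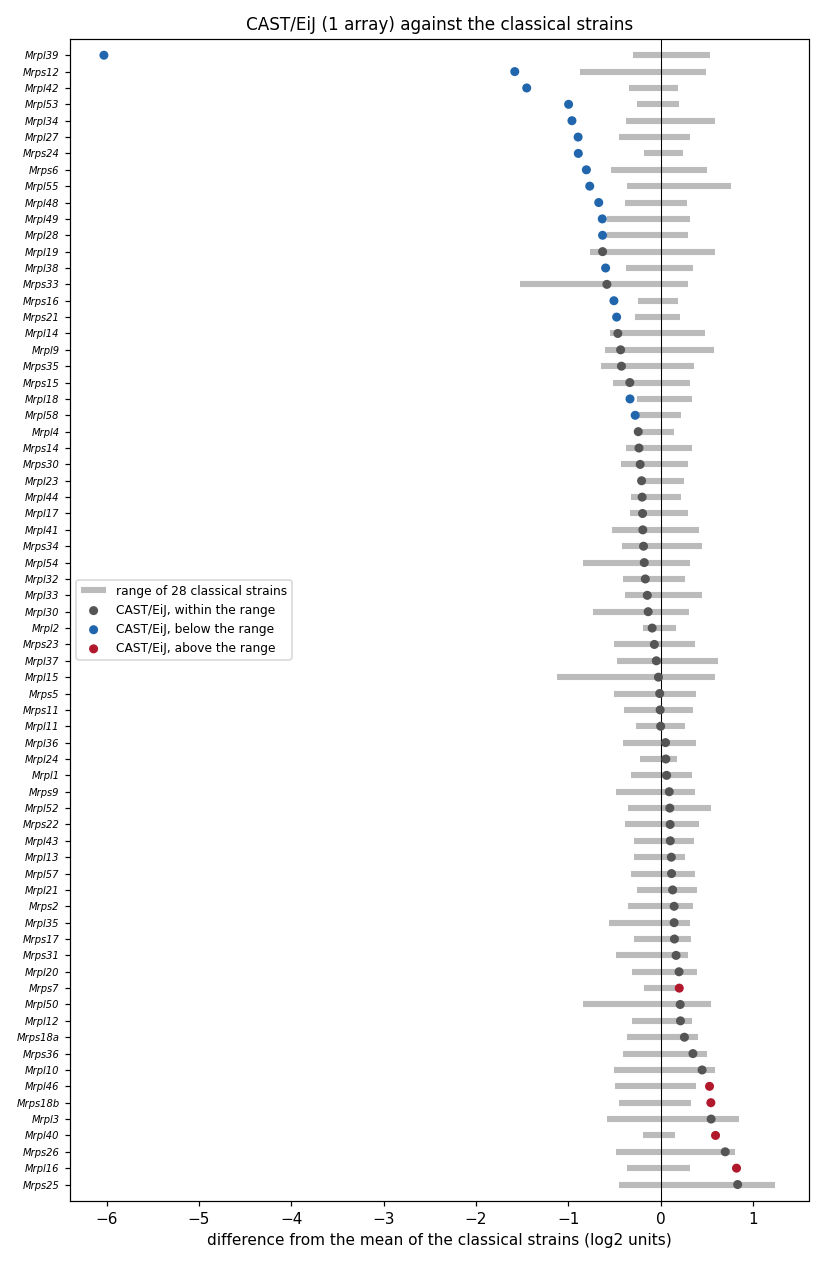
Difference of CAST/EiJ (1 array) from the mean of the 28 classical strains in log2 units for the 70 genes, with grey bars for the range of the classical strains. Mrpl39 lies at -6.03, 17 genes lie below the bars and 5 above.

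Few other genes of mitochondrial translation were called in any comparison, and none of those called was higher. Of 79 listed genes (subunits named otherwise, translation factors, tRNA synthetases, assembly factors, mitochondrial transcription and biogenesis regulators), 49 were on the array and 48 were tested. In BXD against AXB and BXA 6 of the 48 were called, where 14.6% of all genes were. All 6 were lower, where 6.04% of all genes were called lower and 8.59% higher. They were Lrpprc, which stabilises mitochondrial mRNAs (-0.31, SE 0.062, limma adjusted p = 0.000296), Ptcd3, a small-subunit protein (-0.27), Ngrn (-0.24), Gfm2, a factor that acts in ribosome recycling (-0.24), Tfb2m, the mitochondrial transcription factor (-0.18), and Rars2 (-0.13). In BXH against AXB and BXA 5 were called, where 6.52% of all genes were (3.34% lower and 3.18% higher). Again all were lower: Mterf3 (-0.29), Lrpprc (-0.24), Mterf2 (-0.23), Tefm (-0.23) and Ptcd3 (-0.17). Mterf2 was also lower in BXH than in BXD (-0.25). It was the 1 gene of the 48 called there, where 10.6% of all genes were (6.34% lower). None was called in AXB against BXA or in BXH against the classical strains, with 8 at an unadjusted p under 0.05 in each (10.5% and 11.3% of all genes). Both first comparisons share the AXB and BXA families.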

How the data were processed

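Total heart RNA was labelled with biotin after oligo-dT priming and hybridised to Affymetrix HT_MG-430A arrays, per the labels. The deposited values are on a log2 scale and cover 22416 probe sets. GCOS and RMA appear, with no version, in the submitters' processing notes. RMA corrects background and normalises by quantiles, so shifts common to all genes of an array are removed; signal over background was not available for analysis here, and the number of arrays limits the precision. The age label runs from 16 to 113 weeks while the protocol gives 16, so it was not used.

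From these values, the brightest probe set of each gene was taken (probe sets with several genes were left out, 2 among these genes), genes with a mean at or below the 40th percentile of probe sets (3.59) were dropped, and limma 3.58.1 (R 4.3.3) compared panels with families as replicates and adjustment over 7513 genes (adjusted p under 0.05). The code was tested on simulated data. An array counted as carrying another organ's markers where a marker list lay over 2 log2 units above the median array. Genes named are those called in a comparison, those with extreme SD, level, parent difference or CAST/EiJ position, and 6 with a known role. The genes and lists were chosen with earlier results of these data known; the printed windows, the neighbours, the levels of Mrps12 and the arrays named for SEA/GnJ and Mrps33 were singled out after values were seen. Alternatives covered the filter, the probe set rule, the limma settings, centring, RNA integrity covariates, other-organ arrays and title ranges.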

Additional observations from a re-analysis of the deposited data

How the results depend on the processing

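Mrpl15 and Mrps12 kept their direction and call between BXD and AXB with BXA under all 13 alternatives (Mrpl15 from -0.97 to -0.73, Mrps12 from 0.57 to 0.72). The count of 11 genes in that comparison became 18 with array weights, 6 with the Gapdh covariate, 6 without arrays carrying other-organ markers, 5 and 4 within the lower and upper title numbers, and 4 with an actin 3' minus 5' covariate, which was added after seeing the data. Mrpl39 lost its call there in 6 of 13 alternatives, Mrpl16, Mrpl34, Mrpl35 and Mrpl42 in 5 each, and Mrpl50 in 5 and in 1 more that turned it to 0.0016 (the Gapdh covariate). For BXH against AXB and BXA the count of 5 became 3 with the probe set of largest SD and 0 without other-organ arrays, where Mrpl44 turned to 0.054; Mrpl44 also lost its call in 5 of the other alternatives, of 11 in all. For BXH against BXD it became 0 without those arrays. Counts over all genes called moved more than 1.5 times as well: for BXD against AXB and BXA, 1099 became 405 with the Gapdh covariate, 567 with the actin covariate, 545 without other-organ arrays, and 512 and 170 within title ranges; for BXH, 490 and 799 became 18 and 60 without other-organ arrays. The title ranges and the arrays without other-organ markers (3 BXH strains) are smaller samples. Some median differences of the 70 genes moved there too. For BXH against AXB and BXA the median went from -0.062 to -0.020 without other-organ arrays. For BXD against AXB and BXA it stayed at -0.020 without them, and became -0.058 and 0.011 within the lower and upper title numbers. The part of sample size in the lower counts, and the cause of the other changes, was not tested. The median SD of 0.19 was 0.17 with the mean of a gene's probe sets and 0.17 from the median absolute deviation. The counts for AXB against BXA and BXH against the classical strains stayed at 0 under each alternative run. No paired analysis was possible because the labels give the strains no shared replicate numbers.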

Other observations

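B6cC3-1/KccJ, which belongs to no group of the comparisons, lay above all 28 classical strains for 3 of the 70 mitochondrial ribosomal protein genes and below them for 0 (4.29% outside the range, against 4.38% of all genes tested). The 3 were Mrps35, at 9.21 against at most 9.15, Mrps7, and Mrpl16, at 9.71 against at most 9.70. Its mean over the 70 genes was 8.31.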
